A study of Talpa occidentalis with 2 samples.

Results

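The fibroblast growth factor (FGF) pathway of the Iberian mole, Talpa occidentalis, was read from the gene annotation that accompanies a study of the FGF9 regulatory domain. The pathway members were taken by symbol: every FGF ligand, the receptors FGFR1 to FGFR4 and FGFRL1, the Sprouty (SPRY) and SPRED inhibitors, the klotho coreceptors KL and KLB, the adaptors FRS2 and FRS3, the FLRT membrane proteins, the phosphatase DUSP6 and the transcription factors ETV1, ETV4 and ETV5. This gave 43 gene models with 40 symbols, out of 23336 models and 16074 symbols in the annotation of build talOcc3. They comprised 19 ligands, 4 receptors, 7 coreceptors and adaptors, and 10 feedback regulators and targets. The study itself has 2 libraries of circular chromosome conformation capture (4C-seq), a method that reads which DNA fragments lie close to one chosen fragment, the viewpoint. Both came from wild-type embryos of embryonic day 15, 1 from forebrain and 1 from hindlimb, after trypsin dissociation and fixation. Their contacts were not analysed here, their depth is unknown, and the number of embryos behind each library is not stated in the labels. The values below belong to 1 annotated genome, so they have no replicates and no tests, and their precision is that of the assembly and its gene models.

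In this pathway a secreted ligand binds a receptor tyrosine kinase together with heparan sulfate or a klotho protein. The adaptor FRS2 then couples the receptor to the RAS-MAPK cascade. ETV factors and DUSP6 are switched on by the cascade, and Sprouty, SPRED and DUSP6 proteins damp it. FGF9 is known for promoting testis development over ovary development and for roles in limb, lung and skeleton. Ligands are commonly sorted into groups by sequence, and the groups used here are named after 1 of their members: FGF1, FGF4 (with FGF5 and FGF6), FGF7 (with FGF10 and FGF22), FGF8 (with FGF17 and FGF18), FGF9 (with FGF16 and FGF20), FGF11 (with FGF12 to FGF14) and FGF19 (with FGF21 and FGF23). The FGF11 group stays inside the cell and regulates sodium channels, and the FGF19 group acts as hormones.

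The viewpoint of both libraries was placed at the FGF9 transcription start with the primer below, shown because it is the only sequence of a member given in the sources used here. The labels give the forward and the reverse primer with the same 20 letters, so which strand and side each reads cannot be told from them.
FGF9 viewpoint primer: caaaagaaacttccaaaacc

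Of 45 symbols sought, 40 had a model. No model carried the name FGF2, FGF3, FGF19, FGFRL1 or SPRY1. RefSeq, whose mole genes are placed on the newer build MPIMG_talOcc4v2.1, lists 43 of the 45, all but FGF2 and SPRY1 by symbol, and puts FGF3 and FGF19 on either side of FGF4. In the deposited annotation the neighbours of FGF4 were ANO1 and a copy model of ORAOV1 instead. Several models were carried by 3 of the 40 symbols (FLRT2, ETV1 and ETV5), where 14.6% of all symbols had at least 2. The nearest named neighbours of the members were the same symbol in the RefSeq order on 58 of 80 sides (72.5%). Both sides were the same for 21 members, 1 side for 16, and neither for FGF4, FGF12 and FGF13. At FGF4 the RefSeq neighbours FGF3 and FGF19 have no deposited model, and RefSeq has ANO1 on the far side of FGF3. The gaps beside FGF4 are thus measured past genes that lack a model. Distances at FGF12 and FGF13 rest on a less settled order, as do those on the differing side of the 16.

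The ligands shared an internal exon. FGF9 (scaffold 38, 11731991 to 11761319, minus strand) had coding exons of 277, 104 and 243 bases. A coding exon of the same 104 bases was found in 15 of the 19 ligands, against 4.22% of all models and 5.7% when 1 model per symbol was counted. FGF9, which sets the length, is counted among the 15 and so is present by definition. In each of the 15 it was preceded by an intron that splits a codon after its first base (phase 1), and followed by one that falls between codons (phase 0), except in FGF5, where it was the last exon of the model. Such an exon with such introns, or as the last exon, was held by 2.36% of all models with at least 2 coding exons. Single exon lengths recur by number alone: 948 of 139485 inner coding exons in the annotation (0.680%) had 104 bases.

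The 4 remaining ligands were FGF8, FGF17, FGF18 and FGF4. In FGF8, FGF17 and FGF18 the exon at that place had 107 bases, 3 bases or 1 codon more, between introns of the same phases. FGF8 sets up the midbrain boundary and the limb ridge, and FGF17 and FGF18 are its closest relatives. With these 3, an exon within 3 bases of that length and with those introns was present in 18 of 19 ligands, FGF9 included. Of all models with at least 2 coding exons, 7.04% held one. By length within 3 bases alone, 23.2% of all models did. FGF4, a limb ridge ligand, was modelled with 2 coding exons of 129 and 177 bases and without it; its model held 306 coding bases, the fewest of the ligands.

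The exon that follows the shared one differed more between ligands, and was of equal or nearly equal length within the FGF11 and FGF9 groups. It had 199 bases in all 4 intracellular ligands, FGF11 to FGF14. The run of 104 and 199 bases occurred in 5 models of the whole annotation, those 4 and MCM8, a helicase gene. FGF9 and FGF20 both had 243 bases there and FGF16 had 242. In the FGF7 group it measured 192 bases in FGF7, 198 in FGF10 and 195 in FGF22, steps of whole codons. Equal lengths also crossed groups. FGF1, the broad-acting ligand that binds every receptor, also had 195. FGF8, FGF17 and FGF18 had 291, 294 and 267 bases. The hormones FGF21, a liver signal of fasting, and FGF23, the bone hormone of phosphate balance, had 291 and 441. The longest was in FGF6, a muscle ligand, at 822 bases.

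Most ligands thus had a common plan of few exons. Of the 19, 12 had 3 coding exons, and the median over the ligands was 3, beside 5 for all models and 7 for models with at least 2 exons. The share of all models with exactly 3 is not given here, so the 12 have no background beside them. Across the annotation 13 models had 3 coding exons with 104 bases in the middle, and 9 of the 13 were FGF ligands, FGF9 included. In FGF11, FGF13 and FGF14 1 more exon, of 71, 137 and 123 bases, followed the one of 199. Some models matched their target transcript over only part of their own coding length. FGF16 had 5 coding exons of 25, 104, 242, 73 and 198 bases, and 54.0% of its coding length was matched. FGF22 had 4 exons with 40.8% matched, and FGF18 had 4 with 78.5%. FGF5, the ligand that ends hair growth, had 3 with 70.3%, FGF6 3 with 78.2% and FGF8 3 with 89.2%, so partly matched models were found with and without the common plan. FGF9, FGF1, FGF10, FGF11, FGF12, FGF14, FGF21 and FGF23 were matched over their whole coding length. A full match does not show that a model is complete. FGF12 had no exon after the one of 199 bases, and the 478 coding bases of FGF14 were not a multiple of 3.

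**Figure D1:**
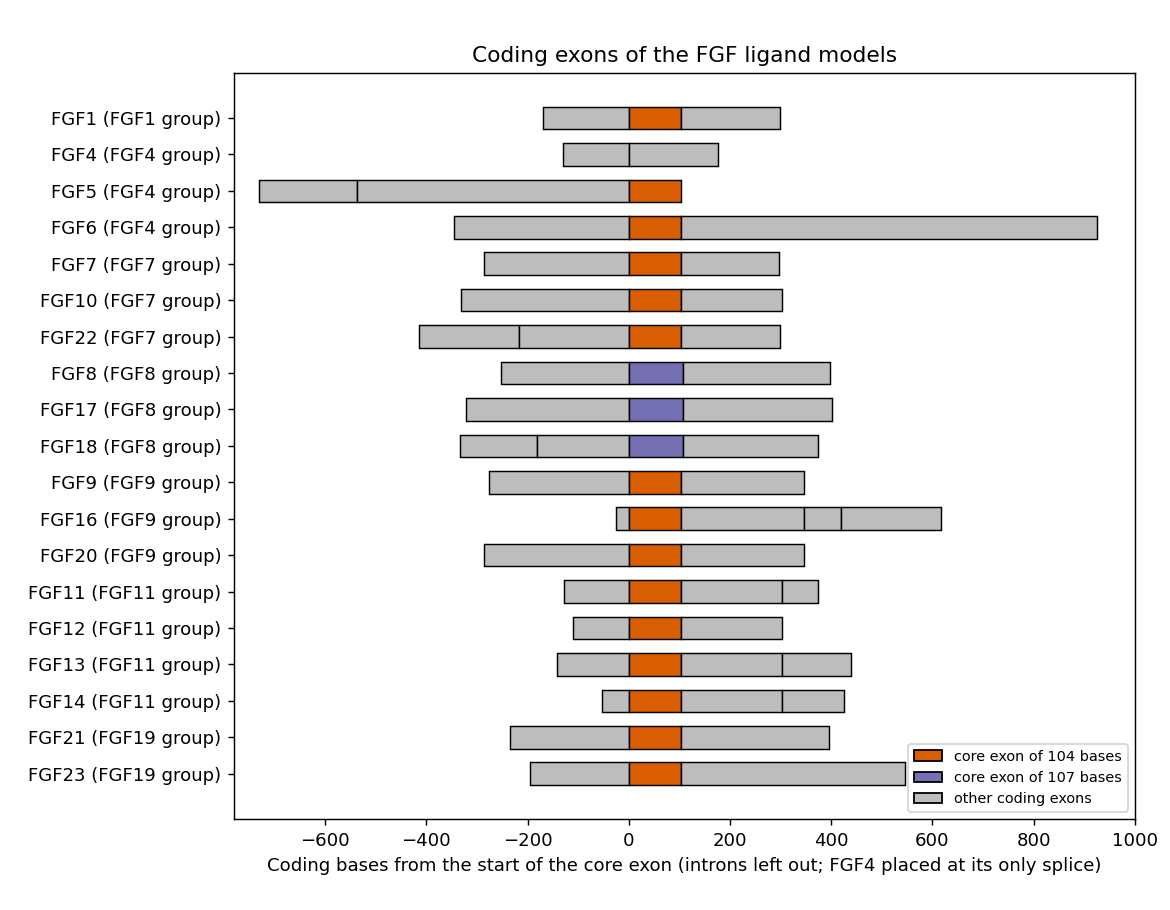
Coding exons of the 19 ligand models, drawn to scale in coding bases without introns and aligned on the start of the shared exon, with ligands grouped by subfamily from top to bottom. The shared exon has 104 bases (orange) in 15 ligands and 107 (purple) in FGF8, FGF17 and FGF18, while FGF4 has none and the exons on either side vary in length.

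The introns differed more widely between ligands than the coding lengths did. Coding length ranged from 306 to 1272 bases, a ratio of 4.16, and the span of the model (introns included) from 0.725 kb in FGF4 to 178 kb in FGF12, a ratio of 245. The low end of both ranges is the FGF4 model, which lacks the shared exon. The longest coding length is that of the FGF6 model, of which 78.2% was matched. Both ratios thus depend on how these genes were modelled. The median span of the ligands was 8.32 kb, beside 7.03 kb for all models and 12.8 kb for those with at least 2 coding exons. A span of 100 kb or more was reached by FGF12 and FGF14, 2 of the 40 members (5%), where 5.27% of all models and 7.19% of models counted once per symbol reached it. FGF14 did so narrowly, at 100.4 kb, and the next longest member was ETV1 at 71.5 kb.

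Long and short ligands stood side by side in the same group. The intracellular group held the longest ligand and one of the short ones. FGF12 lay on scaffold 4 from 36125146 to 36302910 and its 414 coding bases made up 0.233% of the span. Its second intron, the one after the shared exon, measured 146 kb. The same intron was the longest in FGF14 (90.5 kb) and in FGF13 (56.6 kb), and also in FGF11, where it had 0.560 kb. FGF11 spanned 1.54 kb in all, so FGF12 was 116 times, FGF14 65.4 times and FGF13 41.7 times as long with the same pair of exon lengths, 104 and 199 bases. These proteins are made mainly in neurons.

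In the FGF7 group the long intron was the first one. FGF10, the mesenchymal ligand for limb and lung buds, spanned 71.2 kb with a first intron of 65.6 kb. FGF7, a growth factor for epithelia, spanned 50.4 kb with a first intron of 48.8 kb. FGF22, a ligand of skin and synapses, spanned 1.45 kb, so FGF10 was 49.2 and FGF7 34.9 times as long. In the FGF8 group, FGF18 spanned 21.3 kb, FGF8 4.57 kb and FGF17 2.48 kb. FGF21 spanned 1.37 kb and FGF23 6.88 kb, and FGF1 lay between the extremes at 20.5 kb.

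FGF9 was the longest of its own group and stood eleventh among the 40 members. It spanned 29.3 kb, with introns of 9.25 and 19.5 kb. FGF20, on scaffold 13 from 41246351 to 41254666, spanned 8.32 kb, with introns of 5.32 and 2.37 kb. FGF16, on scaffold 32 from 2639619 to 2648975, spanned 9.36 kb. FGF9 was thus 3.53 times as long as FGF20 and 3.13 times as long as FGF16, and it shared the lengths of its last 2 exons with FGF20. FGF20 is active in inner ear and kidney development, and FGF16 in heart muscle. Among all models with at least 2 coding exons, 27.8% were as long as FGF9 or longer, so its span was not unusual.

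**Figure D2:**
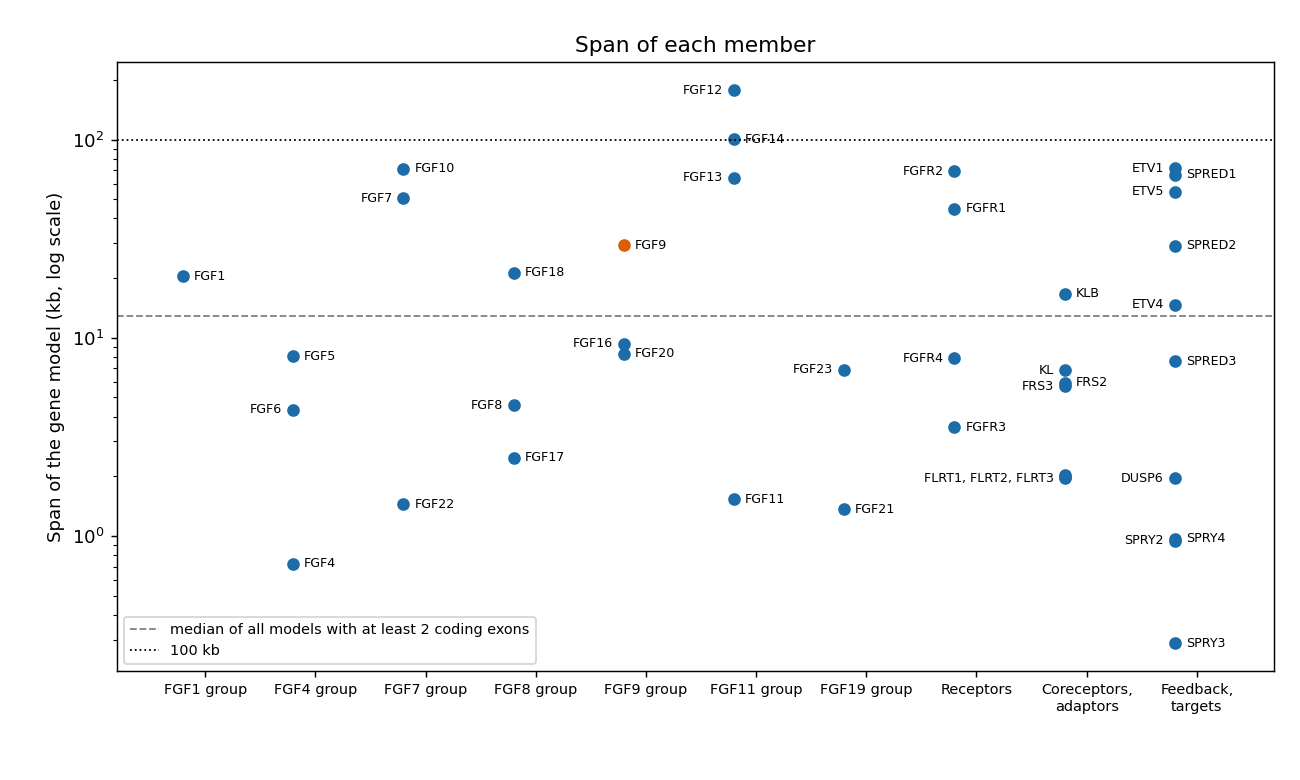
Span of each of the 40 members in kb on a log scale, 1 point per gene, arranged by ligand group and by role; the dashed line is the median of all models with at least 2 coding exons (12.8 kb) and the dotted line 100 kb. Ligands of 1 group lie far apart, as FGF12 (178 kb) and FGF11 (1.54 kb) do, and FGF9 (orange) lies at 29.3 kb.

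The gaps around the members were then measured. A gap was the stretch without any model between a gene and the nearest model on that side that does not overlap it; since only coding exons were read, untranslated ends of genes count as gap. The median of the longer of both gaps was 119 kb for the members and 147 kb for the ligands, beside 33.4 kb for all models and 37.6 kb for models counted once per symbol. It was 66.4 kb for 19 WNT ligands and 55.2 kb for 30 BMP, GDF, activin and TGF-beta ligands, other families of secreted signals. A gap of 500 kb or more bordered 6 of the 40 members, where 4.57% of all models and 4.24% of models counted once per symbol bordered one. None of the WNT ligands and 3 of the 30 BMP and related ligands did. The 6 members were FLRT2, FGF9, SPRED2, FLRT3, DUSP6 and SPRY2, so 1 of them was a ligand. For the ligands alone the share, 5.26%, was near that of all models.

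FGF9 had the longest gap of the ligands. On its 3′ side no model lay within 1326 kb, up to the autophagy gene RUBCNL, and on its 5′ side the calcium uptake gene MICU2 followed after 132 kb. The 3′ gap was 2.82 times the next longest beside a ligand, the 470 kb before FGF14, and 0.550% of genes had a longer side as long or longer. RefSeq lists no protein-coding gene between FGF9 and RUBCNL in its own build, and 4 long noncoding RNA genes. Its group members had shorter gaps: 147 kb beside FGF20, up to TOPBP1, and 78.2 kb beside FGF16, up to a third-copy model of SET. That SET model has a single coding exon. The first model with more exons on that side of FGF16 was PBDC1, 378 kb away, which is also its neighbour in RefSeq.

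Behind FGF9 the ligands formed a wide range. Gaps of 444 kb beside FGF13, 387 kb beside FGF12, 319 kb beside FGF10 (to NNT), 309 kb beside FGF18 (to SMIM23) and 261 kb beside FGF5 followed. At the low end, FGF11 had 3.56 kb and FGF22 5.43 kb as their longer gap. The ligands with short spans in the intracellular and the FGF7 groups were therefore also those with the shortest gaps. With 19 ligands from 1 genome this order is a description.

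The longest gaps of any member lay around FLRT2, a membrane protein that binds FGF receptors and guides migrating cells. Its model on scaffold 29, from 6818982 to 6820962, was parted by 1718 kb from a third-copy model of CENPE on the 5′ side and by 1762 kb from GALC on the 3′ side, 3480 kb in all. No other gene started within 1 Mb of it. RefSeq names SEL1L rather than CENPE on the 5′ side of FLRT2, so the 1718 kb and the 3480 kb depend on that copy model. FLRT3 had 704 kb on its 5′ side, up to a single-exon model without a symbol, and 278 kb on the other. On the 5′ side of FLRT3 RefSeq names MACROD2 as the neighbour. FLRT1, the third of the family, had 87.1 and 24.2 kb and 122 other starts within 1 Mb, so the family spanned the range from empty to crowded.

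Among the inhibitors of the cascade, SPRED2 was parted from MEIS1, a limb and blood homeobox gene, by 974 kb on its 5′ side. DUSP6, the phosphatase of ERK kinases, was parted from KITLG by 590 kb on its 3′ side. SPRY2, a Sprouty inhibitor, was parted from NDFIP2 by 543 kb on its 3′ side. RefSeq lists no protein-coding gene between the members of any of these 3 pairs, nor between FLRT2 and GALC. The gaps beside the other Sprouty genes were shorter, with 259 kb as the longer gap of SPRY4 and 104 kb as that of SPRY3.

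**Figure D3:**
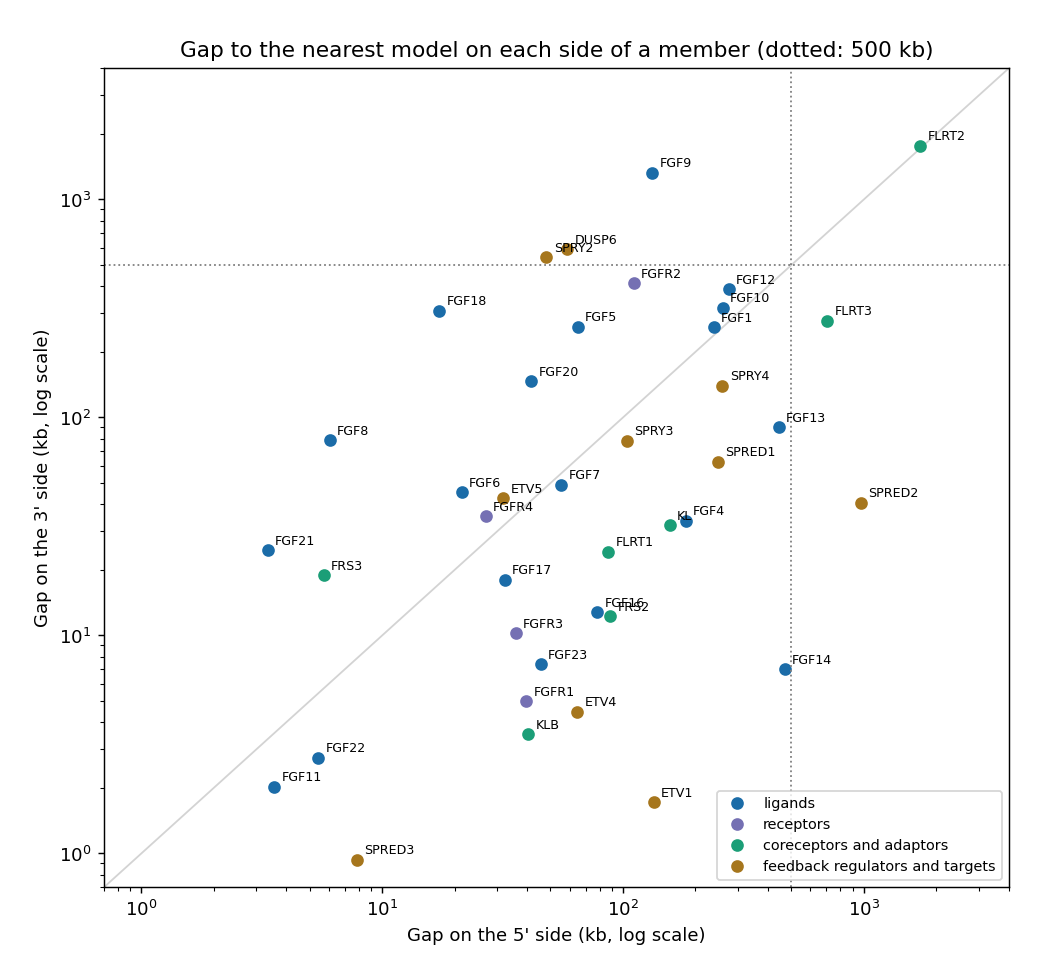
Gap to the nearest model on the 5′ side (horizontal) and 3′ side (vertical) of each of the 40 members, in kb on log scales, coloured by role, with dotted lines at 500 kb and a diagonal where both sides are equal. FLRT2 stands alone with gaps of 1718 and 1762 kb, and FGF9 has a 3′ gap of 1326 kb and a 5′ gap of 132 kb.

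Counted by gene starts, the neighbourhoods were less distinct. The members had a median of 21 other starts within 1 Mb and the ligands 19, beside 25 for all models and 29 for models counted once per symbol. The order turned within 2 Mb, with a median of 46.5 for the members and 44 for all models. Fewer than 10 starts were found around 8 of the 40 members, against 19.1% of all models and 8.73% of models counted once per symbol, and around 0 of the 19 ligands. FGF12, FGF13 and FGF5 each had 10, FGF14 had 12 and FGF9 had 13. The most crowded ligands were FGF11 with 117 starts and FGF21 and FGF22 with 110 each. Members with a model rarely lay together. FGF6 and FGF23 were adjacent, 45.5 kb apart on the same strand, and FGF1 and SPRY4 were adjacent, 259 kb apart on the same strand. No other pair lay within 1 Mb. The 2 pairs follow the RefSeq order as well. RefSeq also places FGF3 and FGF19 on either side of FGF4, a grouping that cannot appear here because neither has a deposited model.

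The models around ligands of 1 group were often named alike. Neighbours were taken as the 10 nearest models on each side, and a pair of members shared a root when 1 neighbour of each had the same symbol up to its final number and letter, as MICU2 and MICU3 do. Pairs within 5 Mb of each other were left out. This was so for 12 of 19 ligand pairs of 1 group (63.2%), and for 41 of 151 pairs of different groups, 27.2%. Read over all families of members, it held for 24 of 39 pairs of 1 family (61.5%) and for 24.7% of 736 pairs of different families. Many roots name large families, and a shared root alone does not make neighbours relatives. Side and strand were therefore compared too, with ribosomal protein names left out. The neighbours lay on the same side and strand in 28 of 43 matches within families (65.1%) and in 31 of 162 matches between them (19.1%). Among the 43, 37 were within 10 protein-coding genes of both members in RefSeq also.

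In the FGF9 group, MICU2 was the first model on the 5′ side of FGF9 and ZDHHC20, a palmitoyltransferase gene, lay 217 kb from it. MICU3 and ZDHHC2 stood on the 5′ side of FGF20, 41.6 and 138 kb away. FGF16 had ZDHHC15 on that side, 573 kb away, with no MICU model among its 10 nearest. All 5 of these neighbours were on the strand opposite to their ligand. The 5′ sides of FGF9 and FGF20 thus held the same pair of gene families in the same order, whereas their 3′ neighbours, RUBCNL and TOPBP1, did not share a root.

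FGF8 and FGF18 shared 4 roots. The nucleophosmin genes NPM3 and NPM1 lay 6.05 and 17.3 kb before them on the same strand, and the channel-interacting genes KCNIP2 and KCNIP1 followed on the same side and strand, 45.2 and 520 kb away. The F-box genes FBXW4 and FBXW11 were on the 3′ side of both but on different strands, and the homeobox genes TLX1 and TLX3 were on opposite sides. The third member, FGF17, shared the root LZTS with FGF8, on opposite sides, and none with FGF18 in the deposited order, while RefSeq places NPM2 next to it.

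In other groups fewer roots were shared. SHC4 and SHC2, adaptor genes, lay on the 5′ side of FGF7 and FGF22. TULP2 and TULP3 lay on the 3′ side of FGF21 and FGF23. The matches between FGF12 and its group rested on the roots TMEM, ATP and CCDC and differed in side, and FGF4, FGF5 and FGF6 shared none.

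**Figure D4:**
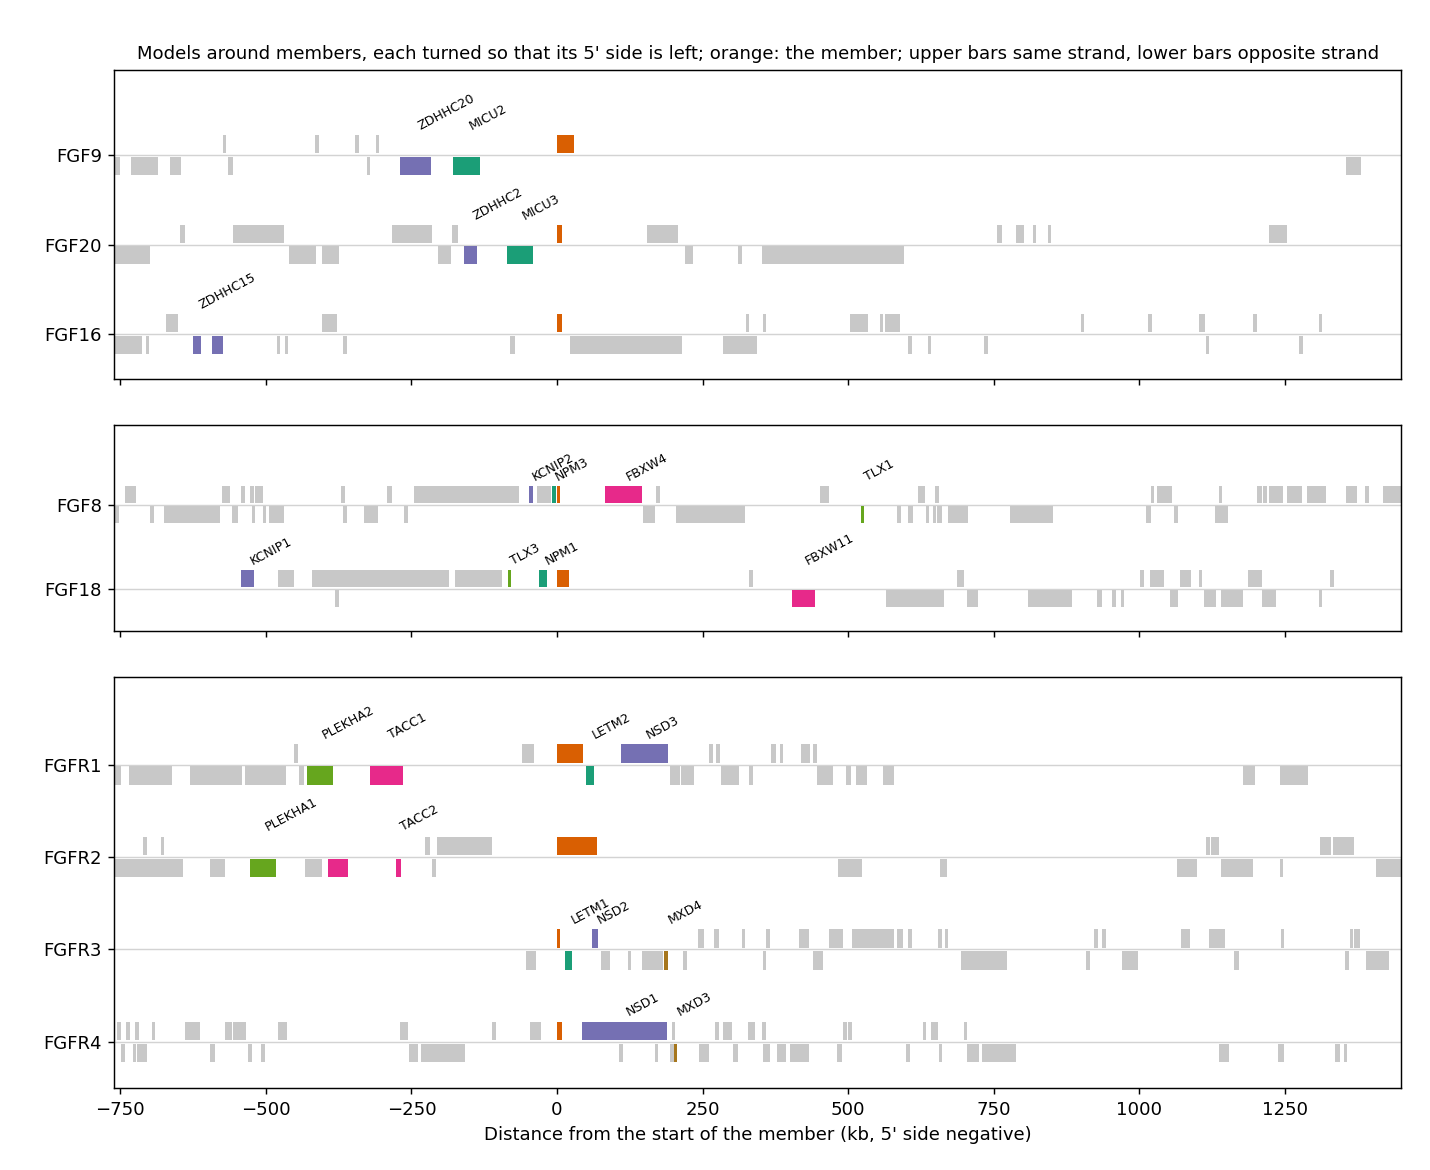
Gene models around FGF9, FGF20 and FGF16 (top), FGF8 and FGF18 (middle) and the receptors FGFR1 to FGFR4 (bottom). Distance is from the start of the member in kb, with its 5′ side to the left. Bars above a line are on the member's strand and bars below on the other, and the member is orange. Neighbours with a selected shared root are named and coloured by root. Other shared roots, such as HTRA, BAG and RGS around the receptors, are left grey. MICU and ZDHHC models stand left of FGF9 and FGF20 alike, no model lies right of FGF9 before RUBCNL at 1355 kb, and NSD models lie right of FGFR1, FGFR3 and FGFR4.

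The receptors had many exons and shared long stretches of them. FGFR1, FGFR2 and FGFR4 were modelled with 18, 17 and 17 coding exons, and all 3 contained a run of 7 exons with 122, 111, 191, 123, 71, 138 and 106 bases, 862 bases in all, next to the last exon. No other model of the annotation held this run. It lies in the part of the gene that encodes the tyrosine kinase. Counted in order over the whole gene, 10 exon lengths were equal between FGFR1 and FGFR2, 10 between FGFR1 and FGFR4 and 9 between FGFR2 and FGFR4. Toward the start the lengths parted, as in the second exon of FGFR2 with 572 bases.

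FGFR3, the receptor that restrains bone growth, was an exception in its model. It had 7 coding exons over 3.55 kb and shared 0 exon lengths with FGFR1, 1 with FGFR2 and 0 with FGFR4. Introns of 73, 84 and 78 bases were among its 6, and 70.7% of its coding length was matched, beside 93.7% in FGFR1, 84.8% in FGFR2 and 99.3% in FGFR4. The spans also differed. FGFR2, a receptor for FGF7 and FGF10 in epithelia, spanned 69.3 kb, FGFR1 44.8 kb and FGFR4, the main receptor of liver cells, 7.87 kb, so FGFR2 was 8.80 times and FGFR1 5.70 times as long as FGFR4. FGFR2 had the longest gap of the receptors, 413 kb on its 3′ side up to WDR11, and the other 3 had between 35.4 and 39.7 kb.

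**Figure D5:**
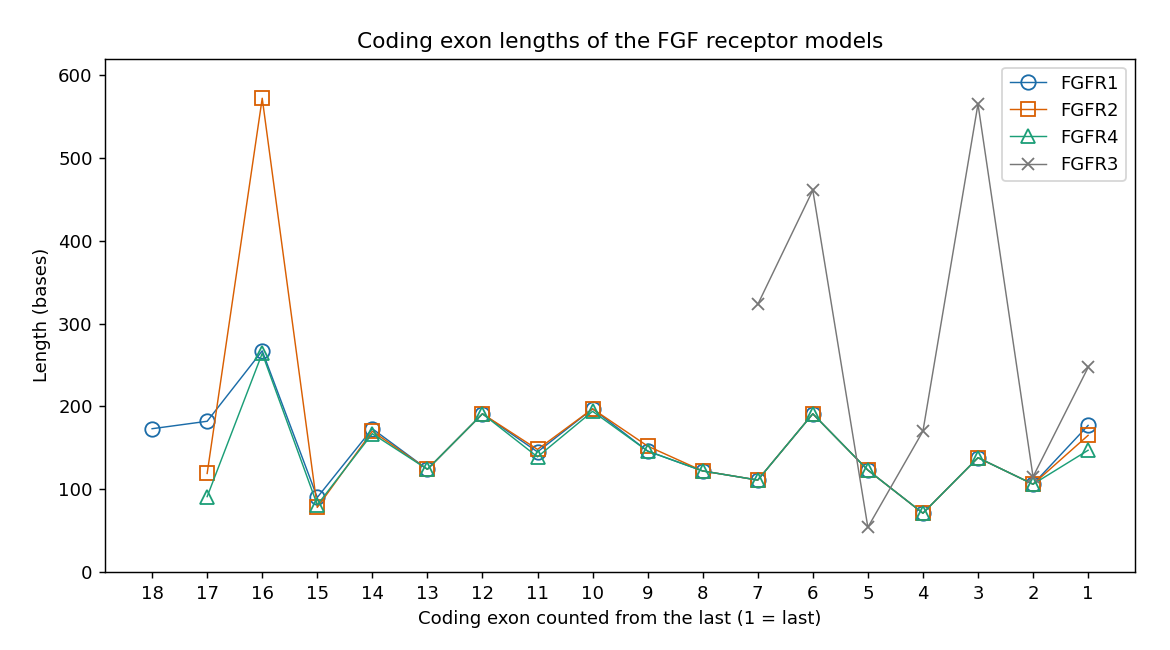
Length in bases of each coding exon of the 4 receptor models, counted from the last exon on the right. FGFR1, FGFR2 and FGFR4 coincide from exon 8 to exon 2 (122 to 106 bases), and FGFR3, with 7 exons, does not follow them.

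The receptors' neighbourhoods were paired as well. FGFR1 and FGFR2 had TACC1 and TACC2, PLEKHA2 and PLEKHA1, and HTRA4 and HTRA1 on the 5′ side, and BAG4 and BAG3 on the 3′ side, all on the strand opposite to the receptor. FGFR1 and FGFR3 had LETM2 and LETM1 on the 3′ side, 4.99 and 10.2 kb away. The histone methyltransferase genes NSD3, NSD2 and NSD1 lay on the 3′ side of FGFR1, FGFR3 and FGFR4 on the receptor's strand, 65.0, 57.1 and 35.4 kb away. MXD4 and MXD3, MYC antagonist genes, lay on the 3′ side of FGFR3 and FGFR4, 181 and 192 kb away. FGFR2 and FGFR3 shared no root. FGFR3 thus shared neighbour roots with FGFR1 and FGFR4, with which it shared no exon length.

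Among the coreceptors, KL and KLB, which bind the hormone ligands to receptors, had 3 and 5 coding exons and 1443 and 1845 coding bases. Both had a second coding exon of 269 bases, a length that 134 models held. KL spanned 6.85 kb and KLB 16.6 kb, and both had a PDS5 cohesin gene and an RFC replication factor gene as neighbours, in different orientations. FRS2 and FRS3, the docking adaptors, had 6 coding exons each over 5.94 and 5.70 kb and shared 1 exon length, 187 bases, which 449 models held. They had 756 and 1425 coding bases. The FRS2 match ran from base 504 to 1981 of its target, a longer stretch than the model holds. The FLRT genes were modelled with a single coding exon each, of 2023, 1981 and 1956 bases in FLRT1, FLRT2 and FLRT3. A second model named FLRT2, on scaffold 7, had 3 exons, a score of 111 beside 1432 for the model on scaffold 29, and 47.3% of its coding length matched.

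The Sprouty models were short, and that of SPRY3 had the shortest span of the members. SPRY2 had 945 coding bases, SPRY4 967 and SPRY3 288, each in a single coding exon. The SPRY3 model matched bases 365 to 651 of its target, with a score of 306 beside 1490 for SPRY2 and 1364 for SPRY4. Its length is that of the model, and whether the model holds the whole gene was not tested. With the FLRT genes, 6 of the 40 members (15%) had 1 coding exon, fewer than the 24.7% of all models and more than the 8.64% of models counted once per symbol. NDFIP2 and NDFIP1, adaptors of ubiquitin ligases, were the next models on the 3′ side of SPRY2 and SPRY4, both on the opposite strand. The SPRED genes had 7, 5 and 5 coding exons and spanned 66.3 kb in SPRED1, 29.1 kb in SPRED2 and 7.63 kb in SPRED3, a ratio of 8.70 from the longest to the shortest. SPRED3 also had the third shortest longer gap of the members, 7.86 kb, and 58.9% of its coding length matched. FAM98B and FAM98C, followed by RASGRP1 and RASGRP4, lay on the 3′ side of SPRED1 and SPRED3 in the same orientation. MEIS2 and MEIS1 lay on the 5′ side of SPRED1 and SPRED2, 952 and 974 kb away. DUSP6 had 2 coding exons of 616 and 308 bases over 1.96 kb.

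The ETV transcription factors are direct readouts of FGF signalling in limb and lung. ETV4 and ETV5 had 12 coding exons each, over 14.7 and 54.5 kb. ETV1 was carried by a pair of models 1.72 kb apart on scaffold 17. The first, of 8 exons, matched bases 435 to 1305 of its target and the second, of 4 exons, bases 1350 to 1903. Joined, they had 12 exons with 1467 coding bases over 87.0 kb, and 7 exon lengths were equal in order to those of ETV5 (45, 88, 48, 130, 170, 102 and 222 bases). With ETV4 the joined model shared 3, and ETV4 and ETV5 shared 3. The joined ETV1 bordered a gap of 1002 kb on its 3′ side, a gap that the count of 6 members above leaves out because the second ETV1 model closes it; the count is 7 with both models joined. ETV1 and ETV4 had MEOX2 and MEOX1 on the 5′ side and TMEM106B and TMEM106A on the 3′ side, in matching orientation. A second model named ETV5, on scaffold 1, had 1 exon of 543 bases and a score of 19.6% of that of the first.

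Genes that act with the pathway, from a list of 44, were present as models for 39. They held 17 of 18 genes of RAS-MAPK transduction, 6 of 7 further negative regulators and 16 of 19 genes of heparan sulfate and ligand carriers. Their median span was 28.2 kb, beside 7.03 kb for all models and 13.4 kb for models counted once per symbol, and their median longer gap 110 kb, beside 33.4 and 37.6 kb. A span of 100 kb or more was reached by 3 of the 39 (7.69%, near the 5.27% and 7.19% of those sets), among them GPC3, a glypican that carries heparan sulfate, at 180 kb. A gap of 500 kb or more bordered 2 of the 39 (5.13%, near the 4.57% and 4.24%), the heparan sulfate sulfotransferase gene HS6ST1 with 1523 kb and the RAS inhibitor gene RASA1 with 501 kb, and none of the 17 RAS-MAPK genes.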

How the data were processed

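The gene annotation deposited by the authors for build talOcc3 was read as it stands. Positions are first and last bases counted from 1, and each gene has 1 transcript of coding exons; untranslated regions were not read. The deposited score of a transcript, per the columns of the deposited file, rates its match to a target transcript; its formula is not stated in the file. The models come from EVM (32 of the members), exonerate (8) and ALN (3). BWA is named in the submitters' processing notes for reads, which were not analysed here.

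A symbol was the model name without copy suffix. Where it had several models, the one without suffix, or of the higher score, was used. Gaps, spans, exon lengths, intron phases, other starts within 1 Mb and neighbours were computed with Python 3.11.15. "Matched" is the stretch of the model's own coding bases that lies in the match to its target, over the coding length. It does not measure how much of the target is covered. The routines recovered 600 of 600 planted values on simulated annotations. RefSeq gave names and neighbour order only.

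All members, their nearest models, neighbours with a shared root and listed pathway genes past a threshold are named by rule; MCM8 was named after its values were seen. Some neighbours under this rule are not reported here. Members and lists were chosen with earlier results of these data known.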

Additional observations from a re-analysis of the deposited data

How the results depend on the processing

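The shared exon of the ligands was found in 15 under the model choice of highest score, with exons under 30 bases apart joined and with intron phases required, and in 18 within 3 bases. The number of members spanning 100 kb or more, 2, became 9 at 50 kb and 0 at 200 kb, where 12.3% and 1.84% of all models passed. The number bordering a gap of 500 kb, 6, became 15 at 250 kb and 2 at 1 Mb (all models 10.8% and 1.23%), and 8 when only models with at least 2 coding exons closed a gap (all models 7.21%). For ligands this number, 1 of 19 (5.26%), was near the 4.57% of all models. It became 8 at 250 kb, 3 with such multi-exon models and 2 with models of at least 300 coding bases (all models 5.01%). The FGF9 gap was 1326 kb under all 4 alternative sets of closing models. The ratio of the median number of starts around members to that around all models, 0.84 at 1 Mb, was 0.75 at 0.5 Mb and turned to 1.06 at 2 Mb. The ligand pairs of 1 group with a shared root, 12, became 5 of 19 (26.3%, beside 5.30% between groups) with 5 models each side, 16 with 20 (84.2%, beside 68.2%), and 15 with multi-exon neighbours only, an alternative added after seeing the data, as were the intron phases and the joining of ETV1. The causes were not tested. No paired analysis was possible because each tissue has 1 library and no value here comes from a library; no replicate could be left out.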
